A study of Bos taurus with 10 samples.

Results

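A list of 47 genes known for their work in adult differentiated tissues was followed in single bovine early blastocysts with and without an edited *SOX2*, to ask whether transcripts that have no known role in a blastocyst were also more abundant after *SOX2* editing. The genes were chosen by symbol from general knowledge of skeletal and cardiac muscle, liver, retina, pancreas, neurons and glia, milk, kidney, lung and thyroid. Of the 47 symbols, 40 matched 1 of the 20112 genes of the table. *TNNI2*, *ALB*, *INS*, *GCG*, *CSN2*, *CSN3* and *UMOD* were not analysed here. Because the table starts at 11 reads per gene over the 10 embryos, a silent gene could enter it only through reads in some embryo, and the 40 matched genes do not stand for the whole list.

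The data are poly(A) RNA profiles made by Smart-seq2 from whole single embryos of *Bos taurus* at the early blastocyst stage, with a labelled age of 7.0 days after fertilization. The study's methods give a slightly later day of collection than this label. All 10 embryos received mRNA of BE3, a base editor that turns C into T at a site set by a guide RNA. The 5 WT embryos (nc1 to nc5) received the editor mRNA alone at the zygote stage, and the 5 *SOX2* KO embryos (ko1 to ko5) received it together with sgRNAs against *SOX2*, designed to create a premature stop codon. Editing started after fertilization in an embryo that keeps dividing, and the read counts do not show which cells carried the edit. No label says whether the embryos of a group came from separate fertilization batches, so p-values measure the spread between these embryos only.

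A blastocyst consists of trophectoderm, which builds the placenta, and of an inner cell mass that separates into epiblast and hypoblast. Sarcomere proteins, clotting factors, phototransduction proteins and synaptic proteins are products of cells that arise much later, during organ formation and terminal differentiation. Single-embryo libraries nevertheless pick up a few reads of many such genes, so the measurement of interest is a small difference at low level.

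The WT embryos had 2223670 to 5134855 reads on genes and the *SOX2* KO embryos 2578284 to 4337342. The 18S ribosomal gene *RN18S1* took 26.4% to 37.0% of them in WT and 32.5% to 45.0% in KO embryos. A read count of 3, the floor used here, equalled 1.77 to 4.45 normalized read counts in WT and 2.46 to 3.96 in KO embryos. *SOX2* itself stood at 56.5, 93.4, 83.5, 73.0 and 84.4 normalized read counts in nc1 to nc5 and at 39.0, 26.4, 64.0, 82.1 and 71.5 in ko1 to ko5 (limma adjusted p = 0.167). A premature stop codon need not lower the transcript, so the overlapping levels do not check the labels. The study itself genotyped the sequenced blastocysts from part of their cDNA. The summed markers of trophectoderm (24091 to 35507 in WT, 32791 to 46280 in KO) and of inner cell mass (1437 to 1840 in WT, 763 to 1041 in KO) were present in each embryo. The inner cell mass and the hypoblast sums (1136 to 1483 in WT, 894 to 1024 in KO) were lower in each KO embryo than in each WT embryo. Called lower were 2 of 5 inner cell mass markers (*NANOG* and *KLF17*) and 2 of 4 hypoblast markers (*PDGFRA* and *HNF4A*), against 1.16% of all tested genes. *POU5F1*, *SOX2* and *SALL4* were not called. Of 7 trophectoderm markers, 1 was called higher, against 8.93% of all tested genes. The part of these lineages in the results on the tissue genes was not tested.

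In the *SOX2* KO embryos 10 of the 40 tissue genes were higher and none was lower. A gene was called at a limma adjusted p (Benjamini-Hochberg over the 20056 tested genes) of 0.05 or less, with at least a doubling or halving on the scale of log2(normalized read count + 1). The called genes were *MYH6*, *MYH7*, *MYH2*, *TNNT2*, *TNNI3* and *RYR1* of muscle, *F2* of liver, *ABCA4* of retina, *GRIN1* of neurons and *TG* of thyroid. Over all tested genes the same rule called 8.93% higher and 1.16% lower. The share of tissue genes called higher was thus 25.0% against 8.93%. An unadjusted limma p under 0.05 was found for 18 of the 40, and for 6500 of the 20056 tested genes. Under a mean of 10 normalized read counts over the 10 embryos, these numbers were 11 of 28 and 3229 of 8722. The log2 fold change was above 0 for 37 of the 40 (92.5%), against 62.9% of all tested genes. Its median was 1.03, against 0.25 for all tested genes. The table's minimum tilts these numbers towards the KO embryos: 16 of the 40 genes had fewer than 11 WT reads in total, and thus entered the table only through their KO reads, whereas 1 (*TSHR*) had fewer than 11 KO reads. Over all tested genes 24.7% had fewer than 11 WT reads and 8.39% fewer than 11 KO reads. The counts and the median are therefore a description. In whole embryos, more cells with a transcript and more transcript per cell cannot be told apart.

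The label of the list, genes restricted to adult tissues, did not hold for every gene in WT embryos. *TNNI3*, *TTN*, *NEB*, *TAT*, *SYN1* and *SNAP25* had a WT mean of at least 20 normalized read counts, and 17 of the 40 genes had a read in each of the 10 embryos. By RefSeq ARS-UCD2.0, other genes of the table overlapped *TTN*, *NEB* and *SYN1*, and genes that did not match it overlapped *TAT* and *SNAP25*. How many of the reads belong to these 5 named genes cannot be told. No gene overlapped *TNNI3*. The list is therefore called tissue genes below. At the other end, 12 genes had at most 3 reads in every WT embryo, and 3 of these, *MYH2*, *TNNT2* and *ABCA4*, were among the called genes (25.0%). Of all tested genes with at most 3 reads in every WT embryo, 24.1% were called higher, so the share of the tissue genes was near the background. With 5, 3 and 2 WT reads in total, *MYH2*, *TNNT2* and *ABCA4* were in the table only because of their KO reads. At least 1 WT embryo had no read for 23 of the genes, and at least 1 KO embryo had none for 11.

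**Figure D1:**
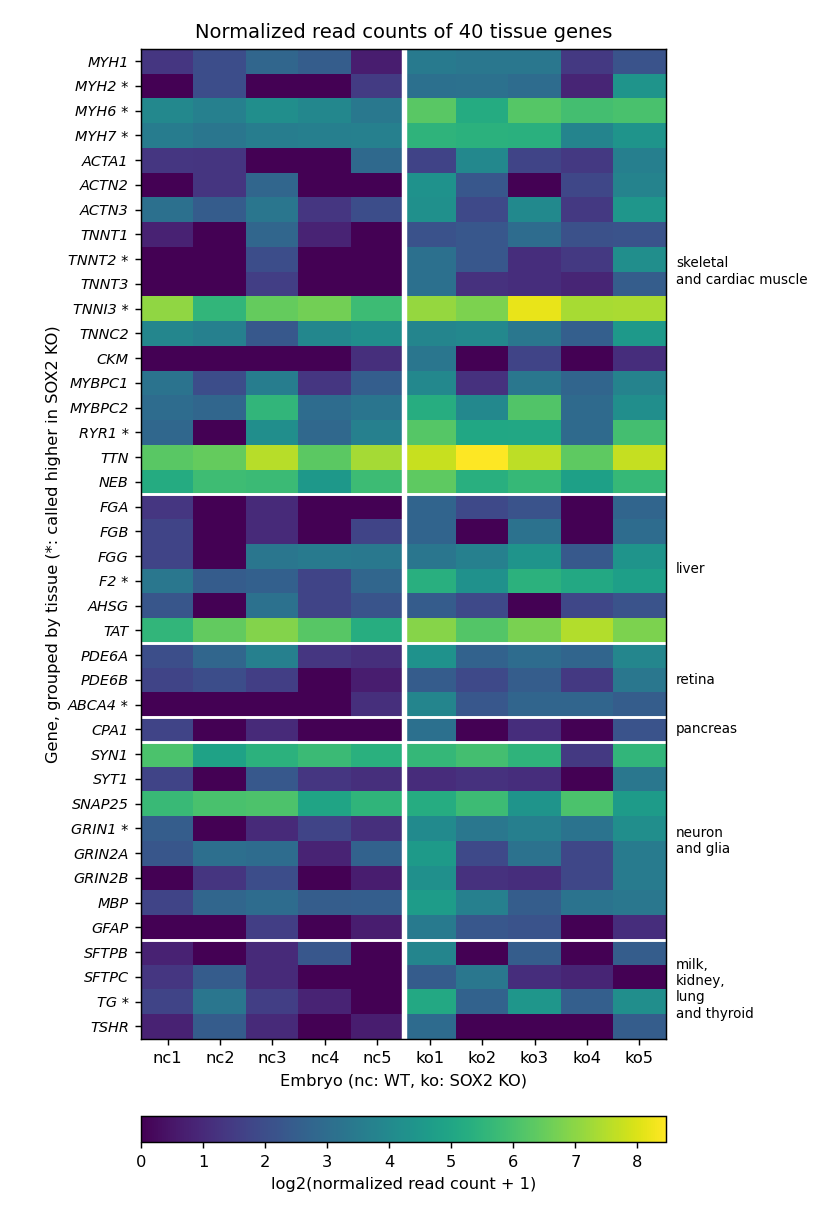
Each row is 1 of the 40 tissue genes, grouped by tissue, and each column 1 embryo (nc, WT; ko, *SOX2* KO), with colour giving log2(normalized read count + 1) and an asterisk marking genes called higher. Colours compare embryos within a gene, since gene length is not accounted for. The highest value lies in ko1 for 19 genes, in ko5 for 8 and in ko4 for 1.

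The myosin heavy chains are the motor proteins of the sarcomere. The alpha cardiac chain had the lowest adjusted p of the listed muscle genes. *MYH6*, the alpha cardiac heavy chain, had 14.5, 11.9, 16.9, 14.0 and 9.44 normalized read counts in nc1 to nc5 and 76.8, 35.7, 73.3, 60.0 and 64.6 in ko1 to ko5. The lowest KO embryo was well above the highest WT embryo. The mean rose from 13.3 ± 2.82 to 62.1 ± 16.2 (SD, n = 5 each), a log2 fold change of 2.11 with an SE of 0.29 (limma adjusted p = 0.000190). *MYH7*, the beta cardiac and slow skeletal heavy chain, had 10.7, 8.90, 10.9, 11.7 and 11.8 in WT and 44.5, 40.9, 40.7, 13.1 and 19.6 in KO embryos. The groups did not overlap, but ko4 lay close to WT. Its log2 fold change was 1.34 with an SE of 0.37 (limma adjusted p = 0.0243), and the call was lost without ko1, ko2 or ko3 (limma adjusted p = 0.0802, 0.0526 and 0.0682).

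Among the skeletal heavy chains, *MYH2*, of fast oxidative fibres, had 0, 2.97, 0, 0 and 1.77 normalized read counts in WT and 7.79, 7.92, 6.98, 0.821 and 19.6 in KO embryos. All KO embryos except ko4 exceeded the WT embryos. The reads numbered 5 in WT and 37 in KO embryos, a depth-corrected ratio of 9.61 with an exact 95% interval of 3.77 to 31.3 that covers counting error only, as for each such interval here, since reads without molecular identifiers are not independent molecules. The log2 fold change was 2.21 with an SE of 0.65 (limma adjusted p = 0.0301), and the call was lost in 6 of the 10 fits that each left out 1 embryo, those without nc1, nc3, nc4, ko1, ko3 or ko5 (limma adjusted p from 0.0519 to 0.0966). With 5 WT reads, *MYH2* was in the table only through its KO reads, and its values are a description. *MYH1*, of the fastest fibres, had a log2 fold change of 0.89 and was not called (limma adjusted p = 0.297). *MYH6* and *MYH7*, like *MYH1* and *MYH2*, are near-identical neighbours in the RefSeq order of ARS-UCD2.0. How the authors treated reads that fit several genes is not given in the sources used here, so the values within each pair are uncertain.

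Troponin ties calcium to contraction, and titin and nebulin set the length of the filaments. *TNNT2*, cardiac troponin T, had 0, 0, 2.98, 0 and 0 normalized read counts in WT and 7.79, 3.96, 1.16, 1.64 and 17.3 in KO embryos. Its groups overlapped through nc3, whose 3 reads were the only WT reads. *TNNT2* was therefore in the table only through its KO reads, and its values are a description. The 28 KO reads gave a ratio of 12.1 (exact 95% interval 3.74 to 62.3), and the log2 fold change was 2.03 with an SE of 0.64 (limma adjusted p = 0.0406). This call was lost without any of nc1, nc2, nc4, nc5, ko1 or ko5 (limma adjusted p from 0.0833 to 0.120), and at a pseudocount of 5, where the log2 fold change was 0.88 (limma adjusted p = 0.0643). *TNNI3*, cardiac troponin I, had 133, 46.0, 86.5, 100.2 and 54.3 in WT and 139, 108, 287, 163 and 167 in KO embryos, so that ko2 fell below nc1. The mean was 84.0 ± 35.3 in WT and 173 ± 68.0 in KO embryos, a log2 fold change of 1.06 with an SE of 0.27 (limma adjusted p = 0.0169). The value lies near the fold threshold and fell to 0.87, 0.93 and 0.86 without nc2, nc5 or ko3, which ended the call, as did equal totals (0.94).

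*RYR1*, the calcium release channel of skeletal muscle, had 6.11, 0, 16.9, 6.22 and 11.8 normalized read counts in WT and 74.6, 31.7, 32.6, 6.57 and 60.0 in KO embryos. Of the KO embryos, 4 exceeded the WT range and ko4 lay within it. Its log2 fold change was 2.33 with an SE of 0.67 (limma adjusted p = 0.0267). Without nc2, ko1, ko3 or ko5 it was no longer called (limma adjusted p from 0.0548 to 0.0880), and without nc2 the log2 fold change was 1.66. The call was also lost at a pseudocount of 0.1 (limma adjusted p = 0.0694).

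The giant sarcomere proteins were not called. *TTN*, titin, had 77.8, 87.5, 185, 80.0 and 159 normalized read counts in WT and 213, 350, 194, 80.5 and 208 in KO embryos. Here 4 KO embryos exceeded the WT range and ko4 was among the lowest of the 10 (log2 fold change 0.78, SE 0.31, limma adjusted p = 0.0890). *TTN* passed the test without ko4, with a log2 fold change of 1.08 (limma adjusted p = 0.0076). *NEB*, nebulin, had 35.9, 56.4, 52.7, 21.8 and 54.9 in WT and 81.3, 39.6, 50.0, 27.1 and 49.6 in KO embryos, and the groups overlapped almost fully (log2 fold change 0.15, limma adjusted p = 0.770). *MYBPC2*, the fast skeletal myosin binding protein C, had 6.87, 5.93, 46.7, 6.99 and 8.85 in WT and 37.9, 14.5, 69.8, 6.57 and 17.3 in KO embryos, with nc3 above 4 of the KO embryos (log2 fold change 0.97, limma adjusted p = 0.247). All 18 matched muscle genes had a log2 fold change above 0, with a median of 1.2, and 6 of the 18 were called. However, *TNNC2* was below 0 with equal totals, with edgeR and after quantile normalization, and *MYBPC1* after quantile normalization and in the thinned reads. Over all tested genes 62.9% were above 0, with a median of 0.25, and 8.93% were called higher. For all genes under a mean of 10 normalized read counts these were 83.7%, 0.93 and 14.1%.

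**Figure D2:**
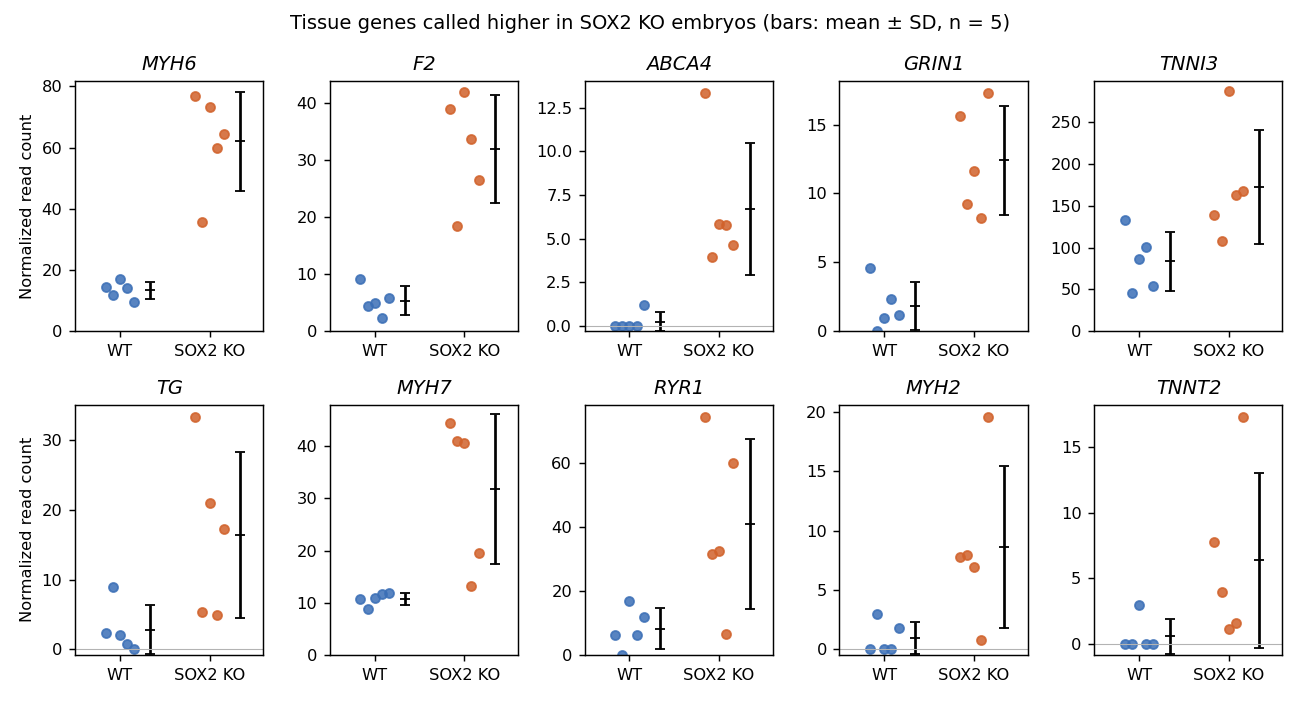
Normalized read counts (vertical axis, a separate linear scale in each panel) of the 10 tissue genes called higher, with 1 point per embryo and bars for the mean ± SD (n = 5). The groups are apart for *MYH6*, *F2*, *ABCA4*, *GRIN1* and *MYH7*, whereas at least 1 KO embryo lies within the WT range for the other genes.

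The liver genes encode secreted plasma proteins and enzymes of hepatocytes. *F2*, prothrombin, had 9.16, 4.45, 4.97, 2.33 and 5.90 normalized read counts in WT and 39.0, 18.5, 41.9, 33.7 and 26.5 in KO embryos. The lowest KO value exceeded the highest WT value. The mean rose from 5.36 ± 2.49 to 31.9 ± 9.50 (SD, n = 5 each), a log2 fold change of 2.41 with an SE of 0.41 (limma adjusted p = 0.000979). *TAT*, tyrosine aminotransferase, had 46.6, 84.5, 117, 75.4 and 37.8 in WT and 120, 72.6, 108, 177 and 110 in KO embryos. The ranges overlapped, and *TAT* was not called (log2 fold change 0.75, SE 0.28, limma adjusted p = 0.0730). The fibrinogen chains *FGA*, *FGB* and *FGG*, which are adjacent in the RefSeq order of ARS-UCD2.0, were not called, nor was *AHSG*, the carrier protein fetuin-A, with a log2 fold change of -0.22. Thus 1 of 6 liver genes was called, against 8.93% of all tested genes.

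*ABCA4* encodes the retinoid transporter of photoreceptor discs. It had 0, 0, 0, 0 and 1.18 normalized read counts in WT and 13.4, 3.96, 5.81, 5.75 and 4.61 in KO embryos. No KO embryo was at 0, and all exceeded nc5. The 2 WT and 31 KO reads gave a ratio of 20.1 (exact 95% interval 5.12 to 174), and the log2 fold change was 2.61 with an SE of 0.52 (limma adjusted p = 0.00392). With 2 WT reads, *ABCA4* was in the table only through its KO reads, so these values are a description. The 2 subunits of rod phosphodiesterase, *PDE6A* and *PDE6B*, were not called. The pancreatic carboxypeptidase *CPA1* was not called either.

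Of the 8 neuronal and glial genes, *GRIN1* alone was called, against 8.93% of all tested genes. It encodes the obligatory subunit of NMDA receptors and had 4.58, 0, 0.994, 2.33 and 1.18 normalized read counts in WT and 15.6, 9.24, 11.6, 8.21 and 17.3 in KO embryos. The groups did not overlap. The mean rose from 1.82 ± 1.75 to 12.4 ± 3.94 (SD, n = 5 each), a log2 fold change of 2.43 with an SE of 0.54 (limma adjusted p = 0.00748). The partner subunits *GRIN2A* and *GRIN2B*, the synaptic calcium sensor *SYT1*, the myelin gene *MBP* and the astrocyte filament *GFAP* were not called.

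The presynaptic genes *SYN1* and *SNAP25* had log2 fold changes below 0. *SYN1*, a synaptic vesicle phosphoprotein, had 65.6, 28.2, 41.8, 52.8 and 40.1 normalized read counts in WT and 49.0, 59.4, 44.2, 1.64 and 46.1 in KO embryos. Apart from ko4, with 2 reads, the KO embryos lay within the WT range. The log2 fold change was -0.69 with an SE of 0.59 (limma adjusted p = 0.436), and without ko4 it was 0.16. *SNAP25*, a protein of the membrane fusion machinery, had 52.7, 63.8, 67.6, 29.5 and 44.9 in WT and 36.7, 54.1, 19.8, 65.7 and 24.2 in KO embryos, again with overlap (log2 fold change -0.44, limma adjusted p = 0.351). *SYN1* is overlapped by *ARAF* and *TIMP1* in RefSeq ARS-UCD2.0.

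Of the lung and thyroid genes, *TG*, the thyroid hormone precursor thyroglobulin, was called. It had 2.29, 8.90, 1.99, 0.777 and 0 normalized read counts in WT and 33.4, 5.28, 20.9, 4.93 and 17.3 in KO embryos. The embryos ko2 and ko4 lay below nc2. The log2 fold change was 2.31 with an SE of 0.64 (limma adjusted p = 0.0240), and the call was lost without nc4, nc5, ko1, ko3 or ko5 (limma adjusted p from 0.0560 to 0.0779). The surfactant genes *SFTPB* and *SFTPC* and the thyrotropin receptor gene *TSHR* were not called.

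The 24 genes not given in full had group means of 0.236 to 12.1 normalized read counts in WT and 2.26 to 13.0 in KO embryos. Their log2 fold changes ran from -0.22 for *AHSG* to 1.62 for *ACTN2*, the actin crosslinker of the Z disc, and limma adjusted p-values from 0.0908 for *TNNT3* to 0.967 for *SYT1*. Of these 24, 23 had a log2 fold change above 0. By RefSeq ARS-UCD2.0, another gene of the table overlapped 10 of the 40 tissue genes, 2 of them called, *GRIN1* (by *LRRC26*) and *TG* (by *SLA*). The strand setting of the counting is not given in the sources used here, so reads of such pairs cannot be told apart. *MYH6*, *MYH7* and *RYR1* were overlapped by microRNA genes that did not match the table.

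Without overlap between the groups, 5 of the 40 genes were higher and none was lower in KO embryos. Over all tested genes these shares were 6.41% and 2.76%. The 5 were *MYH6*, *MYH7*, *F2*, *ABCA4* and *GRIN1*, and all but *MYH7* were called in each of the 10 fits that left out 1 embryo. Of these, *ABCA4* was in the table only through its KO reads. Under a mean of 10 normalized read counts, 2 of 28 tissue genes were higher without overlap, against 772 of 8722 tested genes.

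The background depends on level, because low genes were called higher more often throughout the table. Under a mean of 10 normalized read counts, 14.1% of all tested genes were called higher, and 5 of 28 tissue genes (17.9%) were. In that class 96.4% of the tissue genes and 83.7% of all tested genes had a log2 fold change above 0, with medians of 1.12 and 0.93. The low tissue genes thus had a share of calls near that of other low genes. From 10 to under 100, 4 of 10 tissue genes (*MYH6*, *MYH7*, *RYR1* and *F2*) were called, against 6.76% of all. From 100 on, *TNNI3* was called and *TTN* was not, against 2.29% of all. These classes hold few tissue genes, and the difference in shares was not tested.

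**Figure D3:**
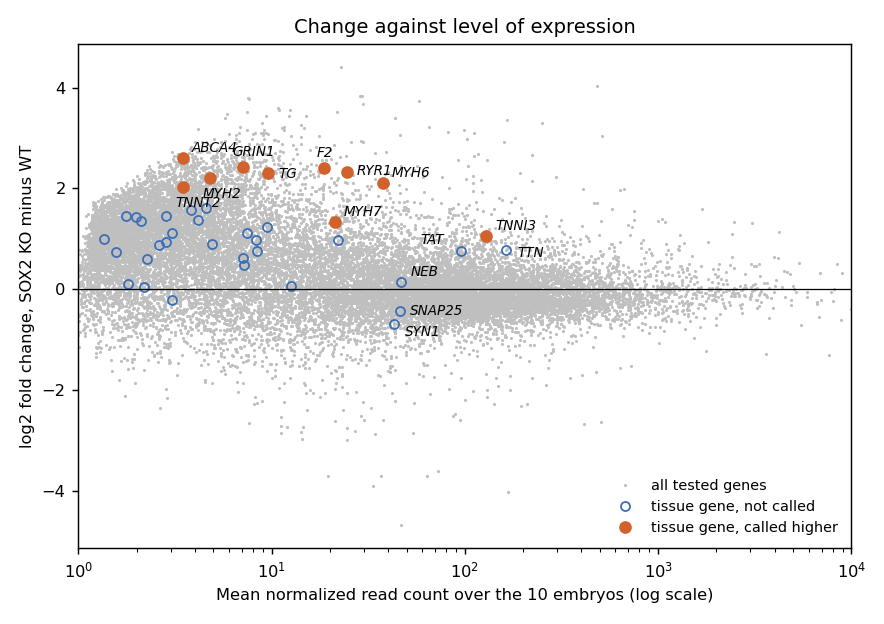
Log2 fold change (*SOX2* KO minus WT, vertical axis) against the mean normalized read count over the 10 embryos (horizontal log axis) for all tested genes (grey), tissue genes not called (open circles) and tissue genes called higher (filled circles). Grey points at low level lie mostly above 0, with a median of 0.93 under a mean of 10, and most tissue genes lie among them.

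A longer list held 205 further genes of the same tissues, of which 163 were tested. Of the 163, 35 were called higher (21.5%, against 8.93% of all tested genes) and 3 lower (against 1.16% of all). The log2 fold change was above 0 for 144, with a median of 1.24. Under a mean of 10, 32 of 129 (24.8%) were higher, against 14.1% of all tested genes, and from 10 to under 100, 2 of 32 (6.25%) were, against 6.76%. In the class from 10 to under 100, 3 of the 32 were called lower, against 154 of 6786 tested genes. The further genes thus had a larger share called higher than all tested genes at low level and a similar one from 10 to under 100. These differences were not tested. Of all tested genes with at most 3 reads in every WT embryo, 24.1% were called higher. The further genes were not counted by that rule, so this share cannot be set against theirs. Some of the called further genes, such as *MYOM2* and *MYH4*, were in the table only through their KO reads. The part of the table's minimum in the larger share was not tested. By tissue, those called higher were 7 of 35 in muscle, 5 of 26 in liver, 4 of 23 in retina, 0 of 13 in pancreas, 13 of 50 in neurons and glia and 6 of 16 in milk, kidney, lung and thyroid.

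**Figure D4:**
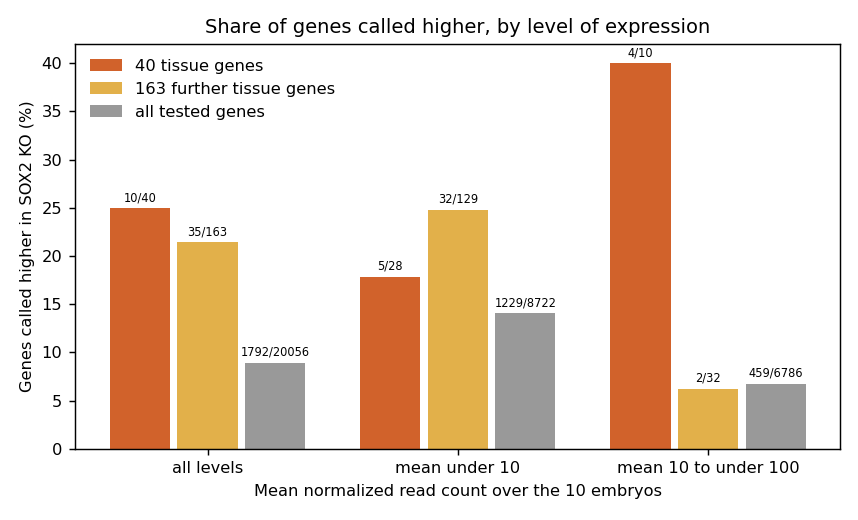
Percentage of genes called higher in *SOX2* KO embryos (vertical axis, from 0) for the 40 tissue genes, the 163 further tissue genes and all tested genes, at all levels and in 2 classes of mean normalized read count, with counts above the bars. Tissue genes reach 25.0% at all levels, 17.9% under a mean of 10 and 40.0% from 10 to under 100, where the further tissue genes reach 6.25%.

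Single further genes showed both directions. *CNGB1*, a subunit of the rod cation channel, had 0.763, 0, 0.994, 1.55 and 1.77 normalized read counts in WT and 24.5, 13.2, 5.81, 2.46 and 16.1 in KO embryos, without overlap (log2 fold change 2.50, limma adjusted p = 0.0104). *MYRF*, a regulator of myelin genes, rose by a log2 fold change of 2.45, *NPHS1*, the podocyte protein nephrin, by 2.38 and *GRIN2C*, an NMDA receptor subunit, by 2.35 (limma adjusted p from 0.0084 to 0.0138). Both *CNGB1* and *GRIN2C* had so few WT reads that they were in the table only through their KO reads. Their values, including the lack of overlap, are therefore a description. *MYOM1*, the M-band protein myomesin, had 55.7, 65.3, 78.6, 54.4 and 93.3 in WT and 39.0, 19.8, 26.7, 39.4 and 21.9 in KO embryos. Each KO embryo was below each WT embryo, and *MYOM1* fell by 1.24 on the log2 scale (limma adjusted p = 0.0057).

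The difference was spread unevenly over the KO embryos. At least 1 read was found for 32, 25, 36, 25 and 31 of the 40 genes in nc1 to nc5 and for 40, 35, 37, 32 and 39 in ko1 to ko5. After thinning each embryo to 2223670 reads the numbers were 28, 25, 33, 23 and 27 in WT and 40, 34, 34, 26 and 38 in KO embryos. The embryos ko1 and ko5 had the most genes and ko4 lay within the WT range at either depth. The same embryos also differed over the whole table, where 79.2% to 90.0% of the genes had a read in WT and 89.4% to 98.5% in KO embryos.

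Summed over the 40 genes, the normalized read counts were 528, 467, 757, 451 and 506 in WT and 1244, 963, 1133, 706 and 1073 in KO embryos. Only ko4 lay below the highest WT embryo, nc3. The sum took 0.013% to 0.023% of reads in WT and 0.020% to 0.038% in KO embryos. Of the 40 genes, 37 had their highest value in a KO embryo, 19 of them in ko1, 8 in ko5, 6 in ko3, 3 in ko2 and 1 in ko4. Of all tested genes, 22.3% had their highest value in ko1, 15.8% in ko5, 8.58% in ko3, 7.52% in ko2 and 8.69% in ko4. Under a mean of 10, ko1 was highest for 53.6% of the tissue genes and 39.7% of all tested genes. For ko5 these shares were 25.0% and 23.0%, so low genes in general also peaked most often in these embryos.

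The share of tissue genes above the highest WT embryo was 77.5% in ko1, 40.0% in ko2, 55.0% in ko3, 20% in ko4 and 72.5% in ko5. For all tested genes these shares were 41.8%, 26.9%, 32.4%, 23.0% and 39.3%. The order of the embryos was the same for both, from ko1 down to ko4. Under a mean of 10, the shares were 82.1%, 39.3%, 53.6%, 10.7% and 78.6% for tissue genes and 68.2%, 33.7%, 46.4%, 24.2% and 59.8% for all genes.

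**Figure D5:**
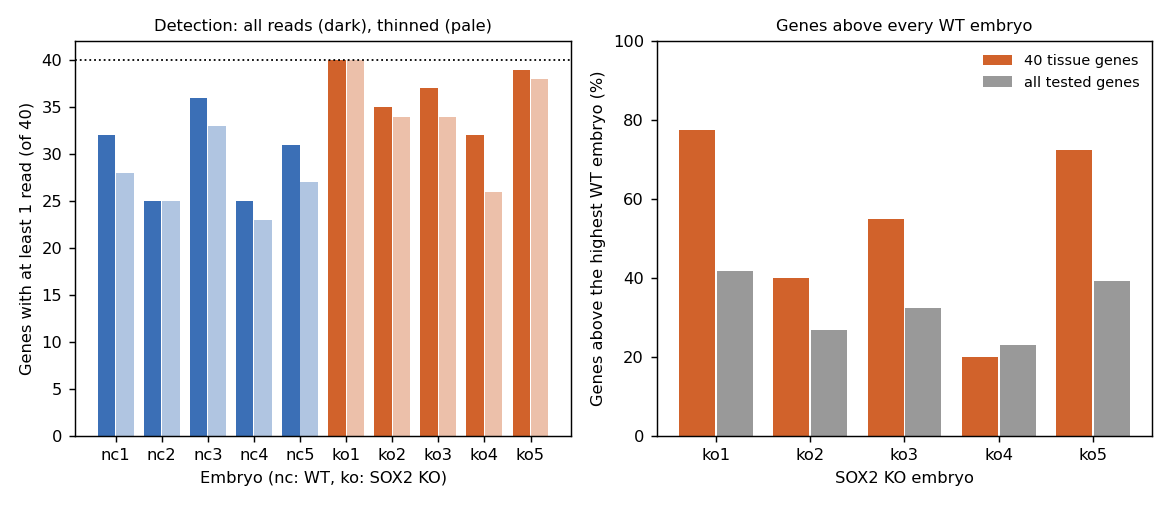
Left, number of the 40 tissue genes with at least 1 read in each embryo, at full depth (dark) and after thinning to the smallest library (pale), with a dotted line at 40. Right, percentage of the tissue genes and of all tested genes above the highest WT embryo in each KO embryo, from 77.5% against 41.8% in ko1 to 20% against 23.0% in ko4.

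Leaving out 1 embryo at a time gave 5 to 14 called tissue genes. The count was 5 without ko1 or ko3, 6 without ko5 and 14 without ko4. Over all tested genes 4.41%, 5.92%, 3.84% and 15.2% were called higher without ko1, ko3, ko5 and ko4, respectively.

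Markers of other cells that a sample could hold were low. Summed markers of cumulus and granulosa cells came to 8.90 to 62.2 normalized read counts in WT and 31.2 to 70.0 in KO embryos, with 0 of 7 called. The blood markers summed to 17.8 to 49.7 in WT and 32.0 to 104 in KO embryos, and 1 of 7 was called, the leukocyte phosphatase gene *PTPRC*. *PTPRC* had 0.763, 0, 0.994, 0 and 0 in WT and 12.2, 1.32, 5.81, 1.64 and 5.77 in KO embryos. Sperm markers summed to 1.48 to 36.6 in WT and 4.11 to 17.4 in KO embryos, with 1 of 4 called, *AKAP4*, which had no read in WT and whose groups overlapped at 0, while *PRM1* had no read in 6 of the 10 embryos. Both *PTPRC* and *AKAP4* were in the table only through their KO reads. Of all tested genes 8.93% were called higher, and 14.1% of those under a mean of 10 normalized read counts. The part of these cells and of the number of detected genes in the result was not tested.

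The other tests gave similar counts of tissue genes. DESeq2 on the whole reads recovered from the table called 10 of 40 higher, against 9.13% of all genes, and the quasi-likelihood test of edgeR called 9, against 8.41%. Both called the same genes as limma, except that edgeR left out *TNNI3*. Quantile normalization, which forces the same distribution on each embryo, moved the median log2 fold change of all tested genes from 0.25 to -0.02 and that of the tissue genes from 1.03 to 0.44. It called 6 of the 40 (*MYH6*, *TNNI3*, *RYR1*, *F2*, *ABCA4* and *GRIN1*), against 3.14% of all genes, and 30 of the 40 stayed above 0. In the thinned reads 6 of the 37 tested tissue genes were called, against 6.86% of all. There, *MYH7* was called in place of *TNNI3*.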

How the data were processed

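Single bovine embryos, 5 WT and 5 *SOX2* KO, were compared. According to the labels and the study's methods, reads were trimmed with Trimmomatic, aligned with HISAT2 (ARS-UCD1.2) and assigned to genes with featureCounts. The annotation release, strand setting and handling of multi-mapping reads are not given in the sources used here. The authors deposited a normalized signal: the reads of each gene, scaled by a size factor that DESeq2 gives each embryo. Division by the smallest value above 0 in an embryo turned 100% of the 201120 values into whole reads (tolerance 1e-06 reads). Reads per embryo numbered 2223670 to 5134855, and intervals cover counting error only. The KO columns could be tied to their group but not to a numbered sample.

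The main test was eBayes with trend in limma 3.58.1, without covariates, on log2(normalized read count + 1). It covered 20056 genes whose mean was 1 or more, and fold changes are on this scale, which understates the change of low genes. DESeq2 (version 1.42.0), which called 1836 genes higher and 238 lower, and edgeR (version 4.0.16), which called 1686 higher and 299 lower, were run on the recovered reads in R 4.3.3. Tables were made with scipy 1.17.1, pandas 2.3.3 and numpy 2.4.6 under Python 3.11.15. Calls needed an adjusted p of 0.05 or less together with a fold of 2 or more, or 0.5 or less. The tests were checked on simulated counts in which only genes with a mean of at least 20 normalized read counts were changed. Recovery of changes in lower genes was therefore not checked.

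Full values are given for tissue genes that were called or had a mean of at least 20 in either group. Further tissue genes are named where they were called without overlap and the mean of the higher group reached 10, up to 3 per tissue by adjusted p. A gene that met this rule is not reported here. The genes and lists were chosen with earlier results of these data known. Alternatives were pseudocounts of 0.1 and 5, equal totals with and without *RN18S1*, quantile normalization, other filters, no fold threshold, thinning, leave-one-out fits and the count tests. Gene names and neighbours were taken from RefSeq ARS-UCD2.0, whose coordinates do not apply to ARS-UCD1.2 and are not given.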

Additional observations from a re-analysis of the deposited data

Results flagged for a closer look

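In 7 of the 40 groups of 5 embryos examined, 1 embryo stood far from the other 4 by Dixon's 95% critical value. For independent normal values chance gives about 2 (1 in 20 groups). Where 4 embryos are at 0, however, any value above 0 in the remaining embryo is flagged, and the sum holds the same genes. The 7 flags therefore cannot be read against that rate. In WT, nc3 had 2.98 normalized read counts of *TNNT2* while the others had 0, and 46.7 of *MYBPC2* against 5.93 to 8.85. The sum over the 40 tissue genes was 757 in nc3 against 451 to 528. The embryo nc5 had 1.18 of *ABCA4* while the others had 0, and nc2 had 8.90 of *TG* against 0 to 2.29. In *SOX2* KO, ko1 had 13.4 of *ABCA4* against 3.96 to 5.81, and ko4 had 1.64 of *SYN1* against 44.2 to 59.4.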

How the results depend on the processing

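The number of tissue genes called higher (10) was 6 after quantile normalization and 6 in the thinned reads, and 5 to 14 on leaving out 1 embryo. Their median log2 fold change (1.03) was 0.44 after quantile normalization and 0.83 to 1.34 on leaving out 1 embryo. Over all tested genes, 1792 were called higher. This count was 1002 with a pseudocount of 5, 806 with a mean of at least 5, 630 after quantile normalization and 771 to 3057 on leaving out 1 embryo, with the lowest counts without ko5 (771), ko1 (884), nc2 (1053), nc4 (1079), nc1 (1090) and ko3 (1188) and the highest without ko4 (3057). The count called lower (232) was 452 after quantile normalization, 641 without a fold threshold and 176 to 267 on leaving out 1 embryo. The share of calls that were higher was thus 58.2% after quantile normalization against 88.5%. On leaving out 1 embryo the log2 fold change ran from -0.079 to 0.34 for *NEB*, below 0 without nc4 or ko1 (-0.049), and from -0.97 to 0.16 for *SYN1*, above 0 without ko4. No tissue gene was called lower under any alternative that was run. A mean of at least 5 left 20 of the tissue genes, of which 7 were called. The cause of these changes was not tested. No paired analysis was possible because no KO column could be matched to a numbered sample. Genes with at most 3 reads per embryo are at the limit set by depth.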

Other observations

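The values of 4 further tissue genes were singled out after they were seen. *MYBPC3*, the cardiac myosin binding protein C, had 33.6, 28.2, 23.9, 45.1 and 72.6 normalized read counts in nc1 to nc5 and 165, 189, 212, 72.3 and 262 in ko1 to ko5. All KO embryos except ko4 exceeded the WT range. The mean was 40.7 ± 19.5 in WT and 180 ± 70.0 in KO embryos (SD, n = 5 each), a log2 fold change of 2.11 (limma adjusted p = 0.00032). *ACTC1*, cardiac alpha actin, averaged 60.2 ± 31.5 in WT and 136 ± 64.7 in KO embryos, with overlap (log2 fold change 1.24, limma adjusted p = 0.0309). In the opposite direction, *S100B*, a calcium-binding protein of glia, fell by 2.25 on the log2 scale (limma adjusted p = 0.0458), and *NEFL*, the neurofilament light chain, fell by 1.39 (limma adjusted p = 0.0412). Both overlapped between the groups.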
